A study of Mus musculus with 31 samples.

Results

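Antiviral interferon-stimulated genes are genes whose products block steps of viral growth and which cells switch on after exposure to interferon. They were chosen by symbol from a list of 49 names. Of these, 35 had a probe on the array, out of 10600 named genes on it. The other 14 had none (Oas1a, Oas1b, Oas2, Oas3, Oasl1, Ifi35, Ifi44, Ddx58, Rigi, Bst2, Xaf1, Ifi205, Ifi30 and Ifitm1) and were not analysed here.

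Macrophages were grown from the bone marrow of 6 to 8 week old mice for 8 days in medium with L929-conditioned medium, a source of the growth factor CSF-1. Marrow came from C57BL/6J wild-type mice and from MyD88-deficient mice (MyD88-/-), whose deletion allele the labels do not describe. Cells were treated for 2 hours with re-purified LPS from E. coli at 10 ng/mL, with live log-phase E. coli at 1 bacterium per macrophage, or with medium alone (mock). Genotype and stimulus gave 4 groups with 4 mice in each, and each of the 31 two-colour arrays paired a mouse's stimulated RNA with mock RNA of a mouse of the same number and genotype. Values are log2 ratios, so that 1 stands for a doubling. They are read as stimulated over mock, a direction that is likely from the titles but is not stated in the labels. Arrays of the same mouse and stimulus enter as their mean. MyD88-/- LPS mouse 4 had 1 array, and the other 15 mouse and stimulus combinations had 2, with swapped dyes.

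LPS is recognised by Toll-like receptor 4, which signals through the adaptor MyD88 and, from endosomes, through the adaptor TRIF. The TRIF branch activates the kinase TBK1 and the transcription factor IRF3, which switch on interferon beta and also some antiviral genes directly. Secreted interferon then acts through its receptor and a transcription factor complex that binds the interferon-stimulated response element in the promoters of antiviral genes. In macrophages this programme is known as the part of the LPS response that can run without MyD88.

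The response element was searched for as GAAANNGAAA on both strands in RefSeq promoter windows of GRCm38.p6, each from 250 bases before to 50 bases after a gene's start. It was found in 12 of the 27 members with a window (44.4%) and in 3.99% of all 27025 genes with one. Within the 250 bases before the start it was found in 8 members (29.6%) and in 3.46% of all genes. The gamma-activated site, searched as TTCNNNGAA, was found in 6 of the 27 (22.2%) against 9.55% of all genes. An NF-kB site, searched as GGGNNTTTCC, was found in 0 of the 27 and in 1.89% of all genes. Dhx58, Ifi204, Ifi27, Mx1, Mx2, Parp14, Usp18 and Zbp1 had no window. A match describes letters in a window and does not show a site that is used.

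The 180 bases before the start follow for 6 members, with matches to GAAANNGAAA or its reverse complement in capitals. Ifit1, Ifit3 and Rsad2 were among the strongest responders with a match, Oas1g had a match without a called response, and Cmpk2 and Slfn2 were called in all 4 groups without a match. The windows, all in GRCm38.p6, are chr19:34640709-34640888 (plus strand) for Ifit1, chr19:34583349-34583528 (plus strand) for Ifit3, chr12:26456453-26456632 (minus strand) for Rsad2, chr5:120887614-120887793 (minus strand) for Oas1g, chr12:26469035-26469214 (plus strand) for Cmpk2 and chr11:83064932-83065111 (plus strand) for Slfn2, and each is written 5′ to 3′ along the gene.
Ifit1: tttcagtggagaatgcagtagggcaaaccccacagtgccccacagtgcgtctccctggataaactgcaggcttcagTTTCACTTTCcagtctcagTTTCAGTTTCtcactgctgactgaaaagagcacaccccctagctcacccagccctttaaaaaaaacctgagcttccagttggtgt
Ifit3: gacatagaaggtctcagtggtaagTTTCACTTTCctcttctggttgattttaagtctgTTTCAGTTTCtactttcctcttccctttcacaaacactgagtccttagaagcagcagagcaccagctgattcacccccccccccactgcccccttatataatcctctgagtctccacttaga
Rsad2: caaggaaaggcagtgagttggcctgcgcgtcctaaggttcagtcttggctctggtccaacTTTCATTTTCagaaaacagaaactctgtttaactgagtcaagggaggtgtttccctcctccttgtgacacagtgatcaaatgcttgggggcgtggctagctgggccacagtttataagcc
Oas1g: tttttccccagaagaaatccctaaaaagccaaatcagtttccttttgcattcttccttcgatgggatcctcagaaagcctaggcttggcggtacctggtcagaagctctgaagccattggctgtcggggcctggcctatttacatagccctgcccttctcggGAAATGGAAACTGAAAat
Cmpk2: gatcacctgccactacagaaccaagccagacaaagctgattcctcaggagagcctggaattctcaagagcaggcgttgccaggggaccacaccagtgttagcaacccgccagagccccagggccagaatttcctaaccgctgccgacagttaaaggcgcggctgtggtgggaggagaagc
Slfn2: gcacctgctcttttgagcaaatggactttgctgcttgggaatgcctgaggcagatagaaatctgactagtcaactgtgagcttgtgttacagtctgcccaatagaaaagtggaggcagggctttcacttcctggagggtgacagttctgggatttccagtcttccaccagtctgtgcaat

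Ifit1 and Ifit3 each held 2 matches in the stretch shown, Rsad2 1 and Oas1g 2, which overlap. Among the members tested, the 8 with a match in the whole window had a median response, averaged over the 4 groups, of 1.02, and the 13 without one had a median of 0.384. Both sets reached from about 0 to high values, from -0.05 to 3.32 with a match and from -0.11 to 2.39 without. Of the 8 with a match 5 were called in at least 1 group, and of the 13 without one 7 were.

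Of the 35 genes, 28 had values in 3 or 4 mice in each of the groups and were tested with limma, with p-values adjusted over all 7325 probes tested and a call at an adjusted p under 0.05. In wild-type cells 8 of the 28 rose with LPS, against 7.99% of all probes, and 16 rose with E. coli, against 9.43%. In MyD88-/- cells 10 of the 28 rose with LPS, against 5.28% of all probes, and 16 rose with E. coli, against 6.35%. The wild-type LPS count was 3 without wild-type LPS mouse 1 and 3 without mouse 2. All probes called higher there fell too, from 585 to 453 and 418. With each group fitted alone the counts were 3 and 6 with LPS and 10 and 8 with E. coli, in wild-type and MyD88-/- cells. All probes called higher were then 246 and 172 with LPS and 358 and 204 with E. coli. In the main fit they were 585 and 387 with LPS and 691 and 465 with E. coli. No member was called lower in any group, where 9.04% (wild-type) and 4.7% (MyD88-/-) of all probes were with LPS, and 11.8% and 4.42% with E. coli. The members' median response was 0.45 in wild-type LPS, 0.50 in MyD88-/- LPS, 0.85 in wild-type E. coli and 0.75 in MyD88-/- E. coli. The median of all probes lay between -0.06 and -0.05 in every group. With LPS every mouse measured was above 0 for 16 (wild-type) and 17 (MyD88-/-) of the 28 members, against 16.8% and 14.4% of all probes. With E. coli this held for 18 and 21 members, against 17.6% and 14.3%. In RNA from whole cultures, a change in the share of a cell type and a change of RNA per cell cannot be told apart.

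Members were called in different numbers of groups. Cmpk2, Ifit1, Mx2, Parp14, Rsad2 and Slfn2 rose in all 4. Ifi204, Ifit2, Ifit3 and Trim21 rose in every group but wild-type LPS, and Pml in every group but MyD88-/- LPS. Daxx and Isg20 rose with E. coli in both genotypes, and Mx1 with both stimuli in wild-type cells. Dhx58, Eif2ak2 and Usp18 rose in MyD88-/- E. coli alone, and Nmi and Zbp1 in wild-type E. coli alone, where alone means that the other 3 groups missed the call and not that they differed. With unswapped arrays alone, Ifit1, Mx1 and Mx2 were not called in wild-type LPS, Trim21 in MyD88-/- LPS, Nmi in wild-type E. coli and Usp18 in MyD88-/- E. coli. All 3 calls of Ifi204 were lost with those arrays as well. The other 9 were called in no group: Adar, Ifitm3, Lgals3bp, Oas1g, Oasl2, Samhd1, Sp100, Trim25 and Trim30a.

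**Figure D1:**
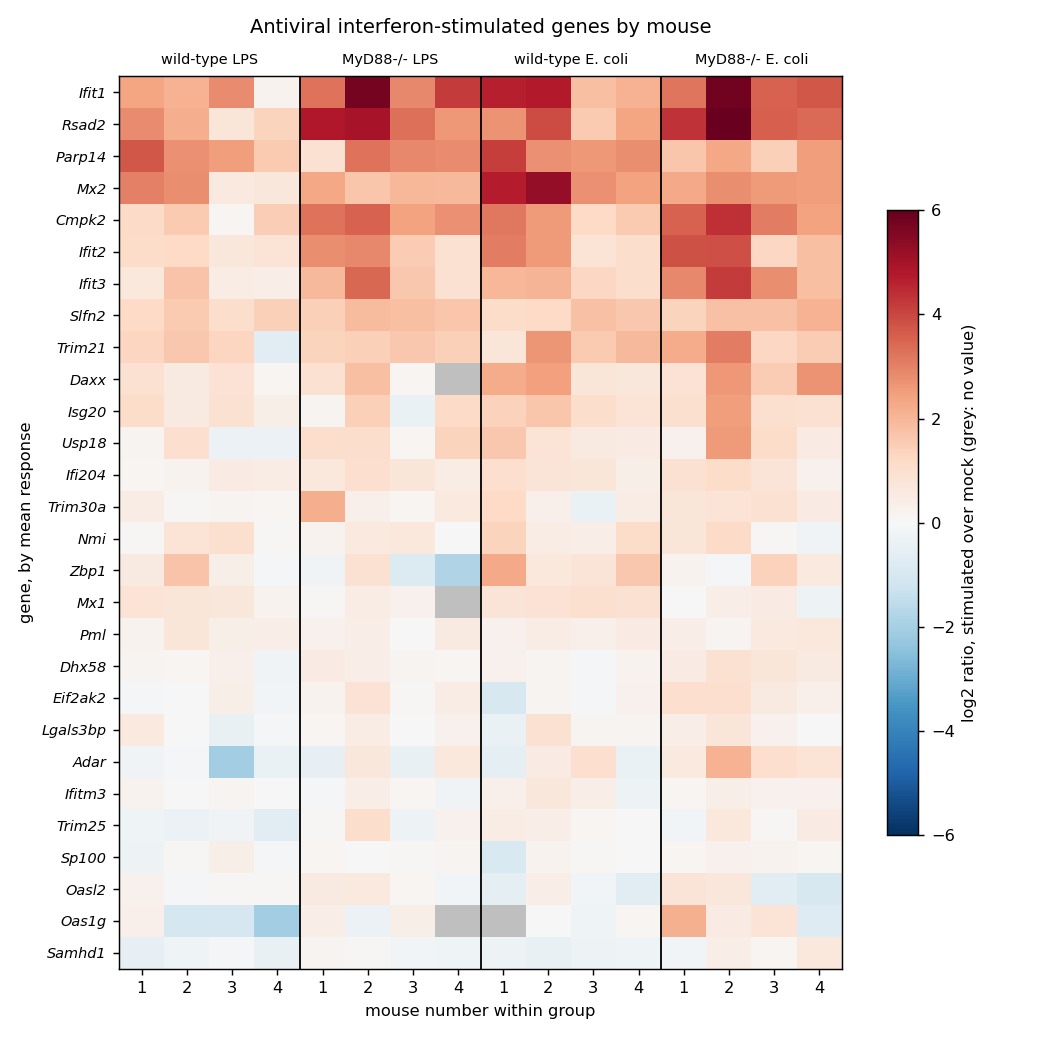
Log2 ratio of stimulated over mock for the 28 tested genes (rows, ordered by mean response over the groups) in each mouse (columns, mouse number within each of the 4 groups), with grey where there is no value. The upper rows, Ifit1 to Slfn2, are red in nearly every column, and the lower rows, from Lgals3bp (mean response 0.196) to Samhd1 (-0.112), are pale in most.

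The Ifit genes encode proteins that bind viral RNA lacking the cap modifications of cellular mRNA. In RefSeq's gene order (GRCm38.p6) Ifit2 and Ifit3 lie next to each other on chromosome 19, with Ifit1 3 protein-coding genes further on. Ifit1 had the largest mean response of all members. In wild-type LPS its ratio was 2.35, 2.11, 2.85 and 0.21 in mice 1 to 4. In MyD88-/- LPS it was 3.28, 5.73, 2.89 and 4.17. Mouse 4 of wild-type LPS was near 0, as the mean of 1.15 on its swapped and -0.73 on its unswapped array. Every MyD88-/- mouse lay above every wild-type mouse, though narrowly (2.89 against 2.85). The values of MyD88-/- LPS mice 2 and 4 came from 1 array each. With E. coli, Ifit1 was 4.68, 4.74, 1.79 and 2.07 in wild-type and 3.23, 5.79, 3.53 and 3.74 in MyD88-/- mice, and the genotypes overlapped. The fitted response was 1.88 ± 0.59 (SE) in wild-type LPS (adjusted p = 0.0403), 4.02 ± 0.59 in MyD88-/- LPS (adjusted p = 0.000259), 3.32 ± 0.59 in wild-type E. coli (adjusted p = 0.000851) and 4.07 ± 0.59 in MyD88-/- E. coli (adjusted p = 0.00021). The wild-type LPS call was lost when wild-type LPS mouse 1, 2 or 3 was left out (log2 1.72, 1.80 and 1.56; adjusted p = 0.141, 0.123 and 0.165).

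Ifit2 and Ifit3 had fitted responses in the same order of groups as Ifit1. Ifit2 was 1.11, 1.18, 0.67 and 0.81 in wild-type LPS and 2.80, 2.90, 1.55 and 0.90 in MyD88-/- LPS. E. coli gave 3.08, 2.56, 0.82 and 1.07 in wild-type and 3.80, 3.87, 1.22 and 1.79 in MyD88-/- mice. In both genotypes E. coli mice 1 and 2 lay above mice 3 and 4. Its fitted response was 0.94 ± 0.46 in wild-type LPS, which was not called (adjusted p = 0.189), 2.04 ± 0.46 in MyD88-/- LPS (adjusted p = 0.00895), 1.88 ± 0.46 in wild-type E. coli (adjusted p = 0.00831) and 2.67 ± 0.46 in MyD88-/- E. coli (adjusted p = 0.00101). Leaving out MyD88-/- LPS mouse 1 or 2 ended the MyD88-/- LPS call (1.78 and 1.75; adjusted p = 0.0623 and 0.0604), and leaving out wild-type E. coli mouse 1 ended that of wild-type E. coli (1.48; adjusted p = 0.0654).

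Ifit3, whose product binds and stabilises the Ifit complex in human cells, was 0.62, 1.70, 0.42 and 0.41 in wild-type LPS and 1.97, 3.43, 1.60 and 0.90 in MyD88-/- LPS. With E. coli it was 1.99, 2.02, 1.22 and 1.05 in wild-type and 2.89, 4.21, 2.80 and 1.78 in MyD88-/- mice. Every mouse was above 0 in every group. The fitted response was 0.79 ± 0.38 in wild-type LPS (adjusted p = 0.184), 1.98 ± 0.38 in MyD88-/- LPS (adjusted p = 0.00273), 1.57 ± 0.38 in wild-type E. coli (adjusted p = 0.00798) and 2.92 ± 0.38 in MyD88-/- E. coli (adjusted p = 7.58e-05). The array's probes are named by gene, and how far a probe also binds RNA of a close relative (Ifit, Mx, Slfn, Oas, Ifitm and Ifi200 families) was not tested.

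Rsad2 encodes viperin, a radical SAM enzyme that makes a chain-terminating nucleotide, and Cmpk2, its neighbour on chromosome 12 with no protein-coding gene between them, encodes a nucleotide kinase. Both rose in all 4 groups. Rsad2 was 2.82, 2.19, 0.71 and 1.33 in wild-type LPS and 4.80, 4.96, 3.31 and 2.61 in MyD88-/- LPS. E. coli gave 2.72, 3.89, 1.56 and 2.36 in wild-type and 4.33, 5.91, 3.60 and 3.42 in MyD88-/- mice. The genotypes overlapped with both stimuli, by mouse 1 of wild-type and mouse 4 of MyD88-/- with LPS and by mouse 2 of wild-type with E. coli. In MyD88-/- LPS mouse 1 the swapped array gave 2.67 and the unswapped array 6.93, and the value of mouse 4 came from 1 array. The fitted response was 1.76 ± 0.48 in wild-type LPS (adjusted p = 0.0181), 2.63 ± 0.48 in wild-type E. coli (adjusted p = 0.000964), 3.92 ± 0.48 in MyD88-/- LPS (adjusted p = 4.16e-05) and 4.31 ± 0.48 in MyD88-/- E. coli (adjusted p = 1.5e-05). The wild-type LPS call was lost without wild-type LPS mouse 1 (1.41; adjusted p = 0.112) or mouse 2 (1.62; adjusted p = 0.0813).

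Cmpk2 was 1.17, 1.55, 0.12 and 1.47 in wild-type LPS and 3.27, 3.54, 2.42 and 2.76 in MyD88-/- LPS. With E. coli it was 3.15, 2.55, 1.18 and 1.56 in wild-type and 3.56, 4.39, 3.08 and 2.42 in MyD88-/- mice. With LPS every MyD88-/- mouse lay above every wild-type mouse, and with E. coli the genotypes overlapped. The fitted response was 1.08 ± 0.34 in wild-type LPS (adjusted p = 0.0411), 2.11 ± 0.34 in wild-type E. coli (adjusted p = 0.000362), 3.00 ± 0.34 in MyD88-/- LPS (adjusted p = 2.12e-05) and 3.36 ± 0.34 in MyD88-/- E. coli (adjusted p = 6.03e-06). The wild-type LPS call was lost on leaving out wild-type LPS mouse 1, 2 or 4, MyD88-/- LPS mouse 1, or MyD88-/- E. coli mouse 1 or 3, with values between 0.92 and 1.08 and adjusted p between 0.0504 and 0.166.

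Functional Mx genes encode dynamin-like GTPases that trap viral nucleoproteins, in the nucleus (Mx1) or the cytoplasm (Mx2) of mouse cells. Whether the mice used here make working Mx proteins was not tested, and the ratios speak of RNA alone. Mx2 was 3.01, 2.78, 0.56 and 0.66 in wild-type LPS and 2.34, 1.68, 1.99 and 1.95 in MyD88-/- LPS. E. coli gave 4.71, 5.26, 2.73 and 2.39 in wild-type and 2.25, 2.77, 2.57 and 2.52 in MyD88-/- mice. Wild-type mice 1 and 2 lay well above mice 3 and 4 with both stimuli, and the values of the MyD88-/- mice lay close together. With LPS the swapped and unswapped arrays of a mouse could disagree in both genotypes. They gave 0.17 and 3.18 in MyD88-/- mouse 2, and 1.63 and -0.50 in wild-type mouse 3. They were closer in MyD88-/- mice 1 (2.56 and 2.12) and 3 (2.10 and 1.88). How far the spread reflects mice or arrays was not tested. The SD over mice was 1.32 and 1.42 in wild-type LPS and E. coli, and 0.273 and 0.214 in the MyD88-/- groups (n = 4 each). The fitted response was 1.75 ± 0.45 in wild-type LPS (adjusted p = 0.0134), 1.99 ± 0.45 in MyD88-/- LPS (adjusted p = 0.009), 3.77 ± 0.45 in wild-type E. coli (adjusted p = 2.04e-05) and 2.53 ± 0.45 in MyD88-/- E. coli (adjusted p = 0.00128). The wild-type LPS call was lost without wild-type LPS mouse 1 (1.33; adjusted p = 0.0963) or mouse 2 (1.41; adjusted p = 0.0895), and the MyD88-/- LPS call without MyD88-/- LPS mouse 1 (1.87; adjusted p = 0.0502).

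Mx1 had a ratio under 1 in every mouse measured. It was 0.81, 0.73, 0.70 and 0.21 in wild-type LPS and 0.77, 0.85, 0.97 and 0.92 in wild-type E. coli. In MyD88-/- mice it was 0.07, 0.45 and 0.25 with LPS in mice 1 to 3, with no value in mouse 4, and -0.01, 0.42, 0.49 and -0.30 with E. coli. With E. coli every wild-type mouse lay above every MyD88-/- mouse. The response was called in wild-type LPS (0.61 ± 0.14; adjusted p = 0.00857) and wild-type E. coli (0.88 ± 0.14; adjusted p = 0.00048). It was not called in MyD88-/- LPS (0.25 ± 0.16; adjusted p = 0.415) or MyD88-/- E. coli (0.15 ± 0.14; adjusted p = 0.617). Leaving out wild-type LPS mouse 1 ended the wild-type LPS call (0.55; adjusted p = 0.0504).

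**Figure D2:**
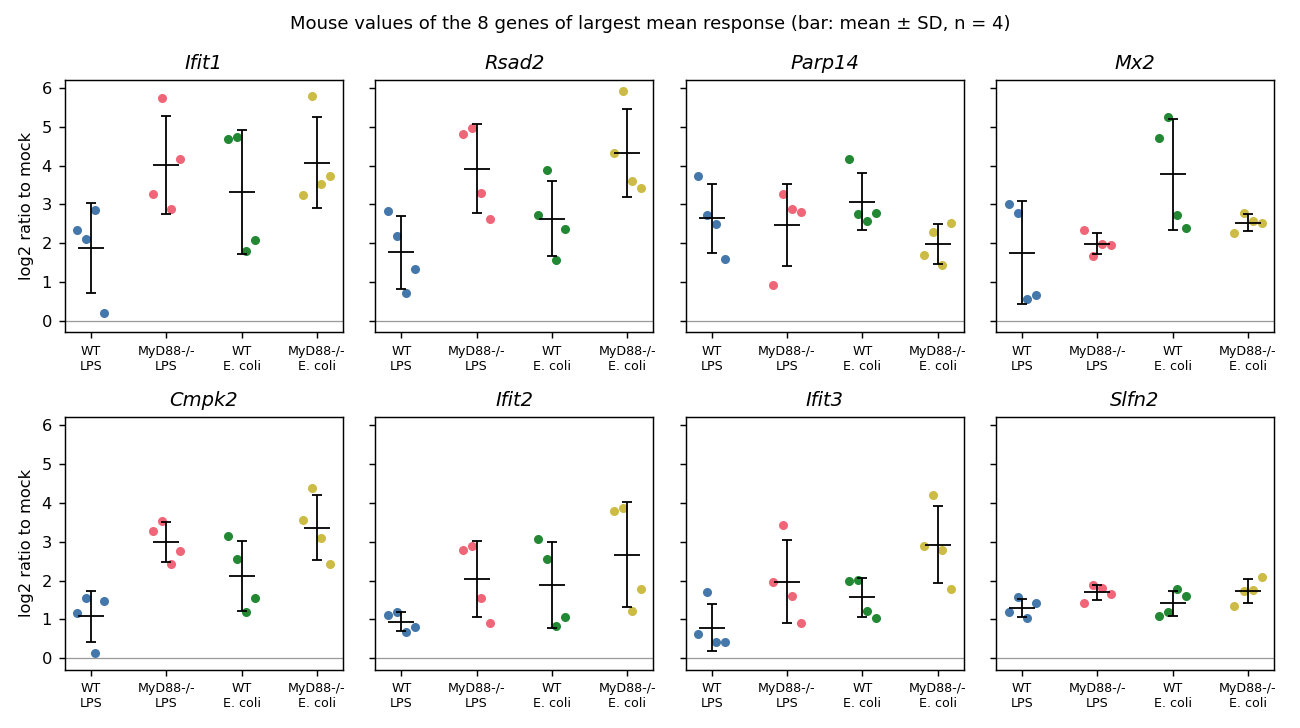
Log2 ratio to mock in each mouse (points) for the 8 genes of largest mean response over the 4 groups, with the mean ± SD of each group of 4 mice as a bar. Slfn2 lies between 1.04 and 2.10 in all 16 values. The wild-type groups of Mx2 and all 4 groups of Ifit1 (SD 1.15 to 1.61) spread widely. Some MyD88-/- groups of other genes do too, as for Ifit2 with E. coli (SD 1.36).

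Parp14 encodes a mono-ADP-ribosyltransferase of the macro-domain PARP family. It was 3.73, 2.74, 2.50 and 1.59 in wild-type LPS and 0.92, 3.26, 2.89 and 2.81 in MyD88-/- LPS. With E. coli it was 4.17, 2.74, 2.58 and 2.79 in wild-type and 1.68, 2.30, 1.43 and 2.52 in MyD88-/- mice, and every wild-type mouse lay above every MyD88-/- mouse. Parp14 had the largest response of the 28 in wild-type LPS (2.64 ± 0.38; adjusted p = 0.000135) and rose in MyD88-/- LPS (2.47 ± 0.38; adjusted p = 0.000348), wild-type E. coli (3.07 ± 0.38; adjusted p = 2.67e-05) and MyD88-/- E. coli (1.98 ± 0.38; adjusted p = 0.00218). The arrays of a mouse could disagree, as in MyD88-/- E. coli mouse 3, where the swapped array gave -0.29 and the unswapped array 3.15. The unswapped array of wild-type LPS mouse 4 stood at the floor of the deposited values, log2(0.01), and was taken as missing. With floor values kept, the wild-type LPS response was 1.61 and not called (adjusted p = 0.156), and that of MyD88-/- E. coli kept its value and lost its call (adjusted p = 0.11).

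The Schlafen genes Slfn2, Slfn1 and Slfn4 lie next to each other on chromosome 11. Slfn2, required in mice for immune cells to stay quiescent, was above 1 in every mouse. It was 1.19, 1.57, 1.04 and 1.42 in wild-type LPS and 1.43, 1.88, 1.81 and 1.66 in MyD88-/- LPS. With E. coli it was 1.10, 1.20, 1.77 and 1.61 in wild-type and 1.35, 1.74, 1.76 and 2.10 in MyD88-/- mice. The 4 groups overlapped and no mouse was near 0. Its fitted response was 1.30 ± 0.15 in wild-type LPS (adjusted p = 1.27e-05), 1.69 ± 0.15 in MyD88-/- LPS (adjusted p = 1.34e-06), 1.42 ± 0.15 in wild-type E. coli (adjusted p = 4.66e-06) and 1.74 ± 0.15 in MyD88-/- E. coli (adjusted p = 9.56e-07). Its call held in every group with any mouse left out, and with unswapped arrays alone its wild-type LPS response was 0.72 (adjusted p = 0.00897). Slfn1 and Slfn4 had values on 15 and 11 of the 31 arrays and were not tested.

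The TRIM members are ubiquitin ligases. Trim21, an intracellular antibody receptor, was 1.27, 1.63, 1.28 and -0.65 in wild-type LPS, where mouse 4 lay far below the others, and was not called there (0.88 ± 0.36; adjusted p = 0.111). The arrays of that mouse disagreed, with 1.06 on the swapped and -2.36 on the unswapped array. Without that mouse it was called (1.39; adjusted p = 0.0114). It rose in MyD88-/- LPS (1.47 ± 0.36; adjusted p = 0.0144), wild-type E. coli (1.72 ± 0.36; adjusted p = 0.00277) and MyD88-/- E. coli (2.01 ± 0.36; adjusted p = 0.00131). The MyD88-/- LPS call was lost without MyD88-/- LPS mouse 3 (1.41; adjusted p = 0.0649) or mouse 4 (1.48; adjusted p = 0.0532). Trim25, which ubiquitinates the RNA sensor RIG-I, and Trim30a were called in no group. Trim30a ranged from 0.21 ± 0.27 in wild-type LPS to 0.79 ± 0.27 in MyD88-/- LPS (adjusted p = 0.0907). In MyD88-/- LPS its mice were 2.16, 0.29, 0.10 and 0.60. The arrays of mouse 1 disagreed there, with 0.60 on the swapped and 3.72 on the unswapped array. Trim25 was -0.37 ± 0.18 in wild-type LPS (adjusted p = 0.193) and between 0.24 and 0.27 in the other groups.

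Sensors of foreign nucleic acid were called in 0 to 3 of the 4 groups each. Dhx58 (LGP2, a helicase that tunes RIG-I and MDA5) rose in MyD88-/- E. coli, with ratios of 0.49, 0.92, 0.72 and 0.54 and a fitted response of 0.67 ± 0.12 (adjusted p = 0.00125). In the other groups it lay between 0.10 and 0.29 and was not called. Eif2ak2 (PKR, the kinase that halts translation on double-stranded RNA) was 0.99, 1.01, 0.56 and 0.29 in MyD88-/- E. coli and rose there (0.71 ± 0.20; adjusted p = 0.028). That call was lost on leaving out MyD88-/- E. coli mouse 1, 2 or 3 (0.61 to 0.76; adjusted p = 0.0658 to 0.142). A second Eif2ak2 probe gave 0.04 ± 0.18 in the same group (adjusted p = 0.935), so the probes disagreed. Zbp1, a sensor of Z-form nucleic acid, rose in wild-type E. coli (1.33 ± 0.39; adjusted p = 0.0238), a call lost without wild-type E. coli mouse 1 (1.00; adjusted p = 0.142) or mouse 4 (1.24; adjusted p = 0.0864). In MyD88-/- LPS its mice spread from -1.82 to 0.90. Adar, which edits adenosines in double-stranded RNA, was called in no group. Its MyD88-/- E. coli response was 1.13 ± 0.35 (adjusted p = 0.0509), with all 4 mice above 0 once floor values were taken as missing. In mouse 1 of that group the swapped array gave 0.59, and the unswapped array stood at the floor, log2(0.01). Mouse 2, the highest at 2.07, had a value on its swapped array alone. Ifi204, a p200-family DNA sensor, was 0.32 ± 0.14 in wild-type LPS (adjusted p = 0.153) and rose in MyD88-/- LPS (0.70 ± 0.14; adjusted p = 0.00473), wild-type E. coli (0.72 ± 0.14; adjusted p = 0.00213) and MyD88-/- E. coli (0.76 ± 0.14; adjusted p = 0.00218). With unswapped arrays alone all 3 Ifi204 calls were lost, at 0.75 in MyD88-/- LPS (adjusted p = 0.0606), 0.61 in wild-type E. coli (adjusted p = 0.0844) and 0.27 in MyD88-/- E. coli (adjusted p = 0.543). With each group fitted alone they were lost too (adjusted p = 0.068 to 0.129).

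The nuclear-body proteins and other effectors were mixed. Daxx, a partner of Pml in nuclear bodies, rose in wild-type E. coli (1.52 ± 0.37; adjusted p = 0.00811) and MyD88-/- E. coli (1.92 ± 0.37; adjusted p = 0.00271). Its wild-type E. coli call was lost without wild-type E. coli mouse 1 (1.29; adjusted p = 0.0551) or mouse 2 (1.21; adjusted p = 0.0574). Pml, the scaffold of nuclear bodies, was small but called in wild-type LPS (0.42 ± 0.12; adjusted p = 0.0288), wild-type E. coli (0.38 ± 0.12; adjusted p = 0.041) and MyD88-/- E. coli (0.45 ± 0.12; adjusted p = 0.0283), and it was 0.29 ± 0.12 in MyD88-/- LPS (adjusted p = 0.168). Each Pml call was lost on leaving out any of at least 3 mice, with values of 0.32 to 0.47 and adjusted p up to 0.166. With unswapped arrays alone the Pml response in wild-type E. coli was 0.57 (adjusted p = 0.00913). Sp100, another nuclear-body protein, lay between -0.16 and 0.18 in the 4 groups and was not called. Isg20, an exonuclease of single-stranded RNA, rose in wild-type E. coli (1.22 ± 0.29; adjusted p = 0.00746) and MyD88-/- E. coli (1.34 ± 0.29; adjusted p = 0.00655). The MyD88-/- E. coli call was lost without mouse 2 of that group (0.95; adjusted p = 0.0595). Nmi, an interferon-induced signalling protein, rose in wild-type E. coli (0.82 ± 0.23; adjusted p = 0.0185), a call lost without wild-type E. coli mouse 1 (0.64; adjusted p = 0.113) or mouse 4 (0.73; adjusted p = 0.0835). Samhd1, which depletes the cell's nucleotides, was -0.32 and -0.33 in wild-type LPS and E. coli and -0.05 and 0.25 in the MyD88-/- groups, none called.

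In the ISG15 system, in which a ubiquitin-like protein is attached to targets and Usp18 takes it off and also restrains the interferon receptor, Usp18 alone could be tested. It rose in MyD88-/- E. coli (1.11 ± 0.33; adjusted p = 0.0396), where its mice were 0.28, 2.56, 1.09 and 0.51. Without mouse 2 of that group the response was 0.62 (adjusted p = 0.269). The call was also lost on leaving out MyD88-/- E. coli mouse 3 (1.12; adjusted p = 0.111), wild-type LPS mouse 1, MyD88-/- LPS mouse 1 or 2, or wild-type E. coli mouse 2, the last 4 through the shared spread alone (adjusted p = 0.0508 to 0.0519). Usp18 was 0.88 ± 0.33 in MyD88-/- LPS (adjusted p = 0.113), 0.87 ± 0.33 in wild-type E. coli (adjusted p = 0.0712) and 0.11 ± 0.33 in wild-type LPS (adjusted p = 0.862).

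Oas1g and Oasl2, of the family whose enzymes turn double-stranded RNA into a signal for RNase L, were called in no group. Oas1g was 0.29, -1.06, -1.01 and -2.10 in wild-type LPS and 2.15, 0.50, 0.84 and -0.77 in MyD88-/- E. coli. It had no value in MyD88-/- LPS mouse 4 and wild-type E. coli mouse 1. The fitted response was -0.97 ± 0.39 in wild-type LPS (adjusted p = 0.118) and 0.68 ± 0.39 in MyD88-/- E. coli (adjusted p = 0.342). Without wild-type LPS mouse 1 the wild-type LPS response was -1.39 and was called lower (adjusted p = 0.0436). Oasl2 lay between -0.22 and 0.28 in the 4 groups. The membrane protein Ifitm3, which blocks fusion of viruses in endosomes, lay between 0.05 and 0.27, and Lgals3bp, a secreted glycoprotein, between 0.01 and 0.35, none called.

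Ifih1, Slfn4, Ifi203, Ifitm2, Ifi27, Isg15 and Slfn1 had values on 8 to 15 of the 31 arrays and were not tested, against a median of 20 arrays over all probes. Isg15, the ubiquitin-like modifier itself, had a value in 7 mice. These were 0.00 and -0.73 in wild-type LPS mice 2 and 4, -3.31 and -0.05 in MyD88-/- LPS mice 1 and 2, and 0.90, 0.42 and -0.71 in MyD88-/- E. coli mice 1, 2 and 4. It was measured in no wild-type E. coli mouse. Ifih1 (MDA5, a sensor of long double-stranded RNA) had values between -1.55 and 1.81 over 8 mice. The values of these 7 genes lie on both sides of 0.

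The comparison of genotypes asks which responses differ without MyD88. No member passed the test, with LPS or with E. coli. Over all probes, 0.0683% were called higher and 0.218% lower in MyD88-/- than wild-type cells with LPS, and 0.205% and 0.546% with E. coli. The members' median difference, MyD88-/- minus wild-type, was 0.36 with LPS, with 21 of 28 above 0, and 0.30 with E. coli, with 22 of 28 above 0. Over all probes the medians were 0.01 and 0.02, with 51.8% and 52.0% above 0. At an unadjusted p under 0.05 there were 5 members with LPS, all higher in MyD88-/- cells, against 8.91% of all probes. With E. coli there were 7, 6 of them higher and 1 lower, against 13.3%.

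The smallest p with LPS belonged to Cmpk2, whose response was 1.92 ± 0.48 larger in MyD88-/- cells (95% interval 0.89 to 2.95; adjusted p = 0.164). Rsad2 followed with 2.16 ± 0.67 (0.72 to 3.59; adjusted p = 0.328), Ifit1 with 2.14 ± 0.84 (0.35 to 3.92; adjusted p = 0.477) and Trim25 with 0.65 ± 0.26 (0.09 to 1.20; adjusted p = 0.496). All 4 differences missed the threshold over all probes. Intervals here and below are not adjusted over probes. Those of the 4 lay above 0, which follows from picking the smallest p and adds no support. When all arrays were fitted singly with a dye term and each mouse and stimulus as a random block, the Cmpk2 difference was 1.93 and was called (adjusted p = 0.0236). Mx2 (0.23; -1.12 to 1.59) and Parp14 (-0.17; -1.30 to 0.97) had differences with LPS on both sides of 0. The mice of both genotypes did not overlap for 2 members, Ifit1 and Cmpk2, both higher in MyD88-/- mice, against 3.4% of all probes in that direction. For Ifit1 the gap was narrow, with 2.89 in the lowest MyD88-/- and 2.85 in the highest wild-type mouse.

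With E. coli the smallest p belonged to Mx1, which was 0.73 ± 0.20 lower as a response in MyD88-/- than in wild-type cells (difference -0.73; 95% interval -1.16 to -0.30; adjusted p = 0.12). Dhx58 was 0.54 ± 0.17 higher (0.19 to 0.90; adjusted p = 0.157), Samhd1 0.58 ± 0.19 higher (0.18 to 0.98; adjusted p = 0.177) and Eif2ak2 0.86 ± 0.28 higher (0.27 to 1.45; adjusted p = 0.177). The second Eif2ak2 probe gave -0.07 (adjusted p = 0.949). In the fit of single arrays with the dye as a term, Mx1 (-0.73; adjusted p = 0.0444) and Dhx58 (0.52; adjusted p = 0.0365) were called. Mice did not overlap for 3 members higher in MyD88-/- mice (Dhx58, Eif2ak2 and Samhd1), against 4.78% of all probes. They did not overlap for 2 lower ones (Mx1 and Parp14), against 4.3%. Mx2 was -1.25 ± 0.64 (-2.60 to 0.11; adjusted p = 0.416) and Parp14 -1.09 ± 0.53 (-2.22 to 0.05; adjusted p = 0.398), while Rsad2 was 1.68 ± 0.67 (0.24 to 3.12; adjusted p = 0.287), Ifit3 1.35 ± 0.54 (0.20 to 2.50; adjusted p = 0.284) and Cmpk2 1.25 ± 0.48 (0.22 to 2.28; adjusted p = 0.266). None of these passed over all probes.

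**Figure D3:**
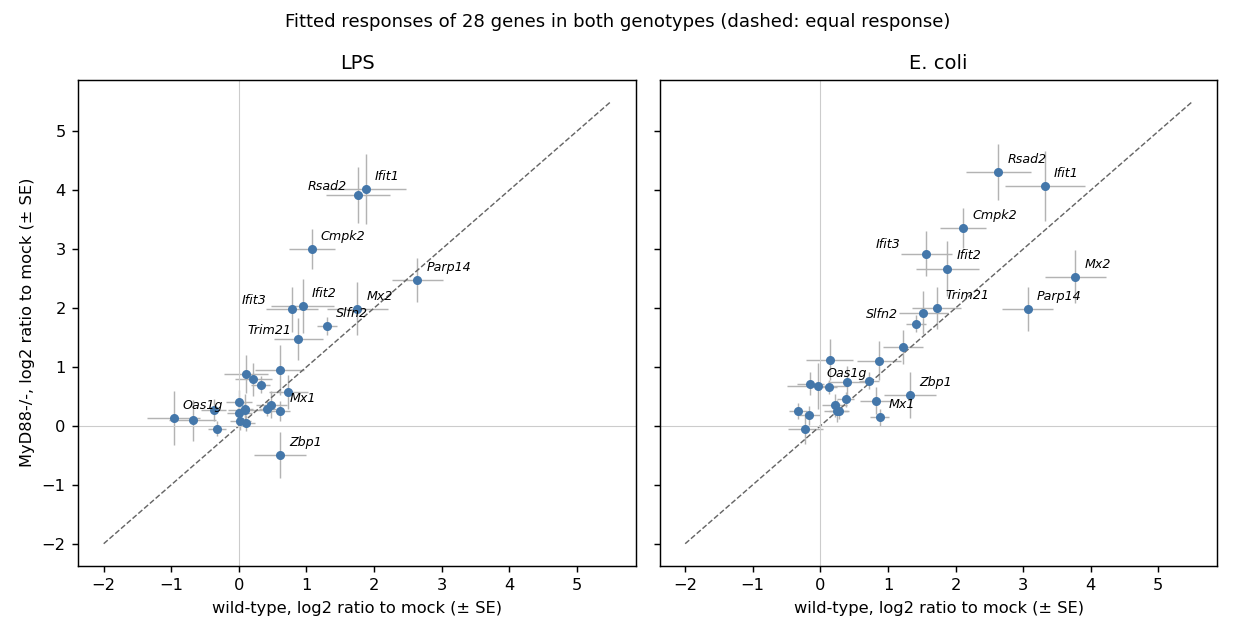
Fitted response (log2 ratio to mock ± SE) of the 28 genes in wild-type (horizontal axis) and MyD88-/- cells (vertical axis), for LPS on the left and E. coli on the right, with a dashed line where both are equal. Rsad2, Ifit1 and Cmpk2 lie above the line in both panels, and Mx1 and Zbp1 below it, with no difference called over all probes.

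The comparison of stimuli within a genotype called no member and 0% of all probes in either genotype. In wild-type cells the members' median difference, E. coli minus LPS, was 0.46, with 23 of 28 above 0, against -0.003 over all probes. In MyD88-/- cells it was 0.26, also with 23 of 28 above 0, against 0.02. The smallest p in wild-type cells belonged to Mx2 (2.02 ± 0.64; 95% interval 0.66 to 3.37; adjusted p = 0.999), Trim25 (0.61 ± 0.26), Cmpk2 (1.03 ± 0.48) and Ifi204 (0.40 ± 0.20). In MyD88-/- cells it belonged to Dhx58 (0.37 ± 0.17; 0.02 to 0.73; adjusted p = 1), Adar (1.03 ± 0.49), Zbp1 (1.01 ± 0.55) and Isg20 (0.76 ± 0.41). At an unadjusted p under 0.05 there were 3 members in wild-type and 1 in MyD88-/- cells, against 4.05% and 2.42% of all probes. These fits take the mice of both stimuli as unpaired. With the mouse number fitted as a block, Mx2 in wild-type cells kept its difference of 2.02, with an adjusted p of 0.0766. It was not called there either, and the labels do not state whether same-numbered mice are paired. Mice of both stimuli did not overlap for Trim25 in wild-type cells, against 1.61% of all probes, and for 0 members in MyD88-/- cells, against 1.34%. The dose of LPS and of bacteria are not on a common scale, so this difference is between these 2 treatments as given.

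The interaction, the genotype difference with E. coli minus that with LPS, was called for 0 members and for 0% of all probes. At an unadjusted p under 0.05 there were 0 members, against 2.99% of all probes. The smallest p belonged to Trim25 (-0.63 ± 0.37), Mx2 (-1.48 ± 0.90), Dhx58 (0.35 ± 0.24) and Mx1 (-0.37 ± 0.30), all with an adjusted p of 1. The members' median was -0.15, with 11 of 28 above 0, against a median of 0.01 and 51.9% above 0 over all probes. The intervals were wide, as for Ifit1 (-1.39; -3.91 to 1.14).

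Within a group, some mice were highest or lowest for a larger share of the members than of all probes. MyD88-/- mouse 2 was the highest of its group for 16 of 25 members with LPS (64.0%) and for 18 of 28 with E. coli (64.3%), where the same mice were highest for 27.6% and 24.6% of all probes. Wild-type LPS mouse 4 was the highest for 0 of 28 members and the lowest for 14, against 18.7% and 27.6% of all probes. Its median over the members was 0.09, and those of wild-type LPS mice 1 to 3 were 0.50, 0.64 and 0.35. In MyD88-/- LPS the medians were 0.52, 0.95, 0.15 and 0.60, in wild-type E. coli 1.10, 0.80, 0.72 and 0.58, and in MyD88-/- E. coli 0.82, 1.12, 0.94 and 0.62. Median responses of wild-type and MyD88-/- mice overlapped with both stimuli. The arrays of wild-type LPS mouse 4 differed by a median of 0.33 over the members and 0.44 over all probes. They differed by more for Ifit1 (1.15 swapped, -0.73 unswapped) and Oas1g (0.01 and -4.2). How far these ranks reflect a mouse or its arrays was not tested. Arrays of both stimuli with the same mouse number may share mock RNA, which the labels do not state, and their values may then not be independent.

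**Figure D4:**
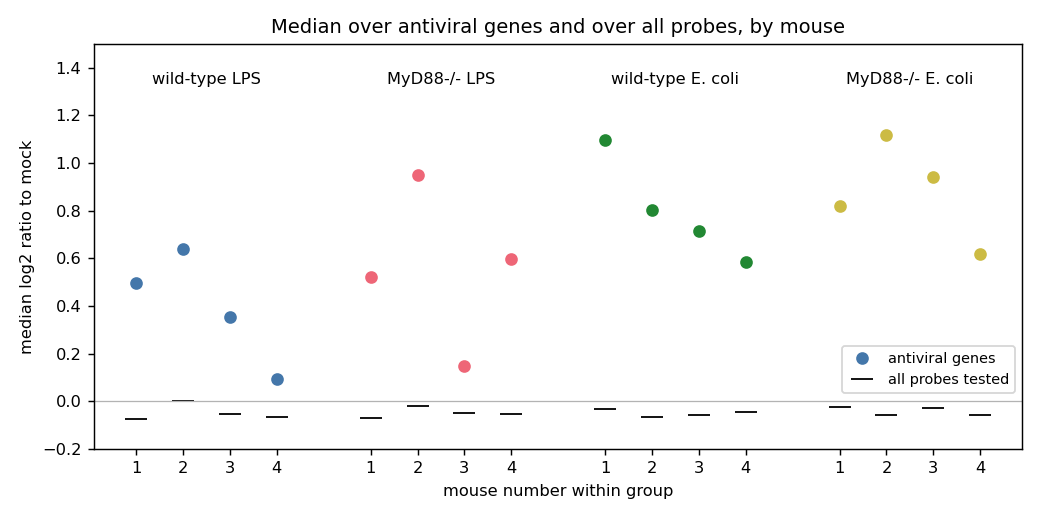
Median log2 ratio to mock over the tested antiviral genes (points) and over all probes tested (black dashes) in each mouse of the 4 groups. The points lie above the dashes in every mouse, from 0.09 in wild-type LPS mouse 4 to 1.12 in MyD88-/- E. coli mouse 2.

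Genes that induce and carry the interferon signal were read from a list of 25, of which 18 had a probe and 15 were tested. Of the 15, 3 rose with LPS in either genotype, 5 with E. coli in wild-type and 6 with E. coli in MyD88-/- cells, and 1 fell in each group. Among all probes, 7.99% (wild-type) and 5.28% (MyD88-/-) rose with LPS, and 9.43% and 6.35% with E. coli. The shares that fell were 9.04% and 4.7% with LPS, and 11.8% and 4.42% with E. coli. Ifnb1, interferon beta itself, was 0.93, 0.11, 0.60 and 1.17 in wild-type LPS and 2.88, 1.21, 1.76 and 1.14 in wild-type E. coli. In MyD88-/- mice it was 0.05, -0.16, 1.49 and -0.11 with LPS and 0.17, 0.28, 0.32 and 0.25 with E. coli. The wild-type E. coli response was called (1.75; adjusted p = 0.000381), and Ifnb1 was not called in wild-type LPS (0.70; adjusted p = 0.11), MyD88-/- LPS (0.32; adjusted p = 0.577) or MyD88-/- E. coli (0.26; adjusted p = 0.674). Its difference between genotypes with E. coli, MyD88-/- minus wild-type, was -1.49 (adjusted p = 0.105). Irf1, a transcription factor that binds similar promoter sites, rose in all 4 groups, by 3.61 (wild-type) and 4.33 (MyD88-/-) with LPS and by 3.96 and 4.23 with E. coli. Irf7, which amplifies interferon production, rose in MyD88-/- LPS (0.84; adjusted p = 0.0456) and MyD88-/- E. coli (1.05; adjusted p = 0.0122) and was not called in wild-type LPS (0.13; adjusted p = 0.771) or wild-type E. coli (0.47; adjusted p = 0.219). The difference in Irf7 between genotypes was not called, at 0.71 with LPS (adjusted p = 0.599) and 0.59 with E. coli (adjusted p = 0.519). Tbk1 rose in all 4 groups, by 0.32 to 0.55, and Irf8 was the gene that fell in each, by 1.33 (wild-type) and 1.51 (MyD88-/-) with LPS and by 0.75 and 1.40 with E. coli.

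Socs1, which inhibits interferon receptor signalling, was the 1 list member of 15 tested called between genotypes, lower in MyD88-/- cells with E. coli. Of all probes 0.546% were called lower there. Socs1 was 4.32, 4.25, 2.89 and 1.53 in wild-type E. coli and 0.71, 1.13, 0.57 and 0.51 in MyD88-/- E. coli. The mice did not overlap, as for 4.3% of all probes in that direction. The lowest wild-type mouse was at 1.53 and the highest MyD88-/- mouse at 1.13. The difference, MyD88-/- minus wild-type, was -2.52 (adjusted p = 0.0405). With LPS Socs1 was 1.58 in wild-type cells (adjusted p = 0.00858) and 0.72 in MyD88-/- cells (adjusted p = 0.291), and the difference of -0.86 was not called (adjusted p = 0.68).

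Arrays held 5564 to 10497 values for 13872 probes, and their number limits the precision. Macrophage markers had values on most arrays, with a median of 30.5 of 31 over 8 markers and Cd14 lowest at 9. T cell markers had a median of 8 arrays with Cd3e on 0, NK cell and neutrophil markers 16, B cell markers 19 and plasmacytoid dendritic cell markers 23. Ratios show changes and not levels, and none of these lists' tested markers was called higher in any group. The markers called lower in at least 1 group were Cd68 and Fcgr1 (macrophage), Blnk and Cd79a (B cell) and Irf8 (plasmacytoid dendritic cell). Their part in the results was not tested. Myd88 cannot check the genotype here, because both channels of an array carry the same genotype. Its ratio was 1.14 to 1.75 in wild-type LPS, 1.27 to 1.89 in wild-type E. coli, 0.87 to 4.70 in MyD88-/- LPS and 0.74 to 1.70 in MyD88-/- E. coli, and where its probe lies relative to the deletion was not determined.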

How the data were processed

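RNA of stimulated and mock-treated macrophages was labelled with Cy3 and Cy5 and hybridised to 31 spotted arrays, per the labels' protocols. Per the labels, the authors used GenePix to scan and quantify slides, then BASE and GeneSpring for the analysis. What they deposited are normalized log2 ratios of both channels; background correction, normalization and the spot filter are not given in the sources used here. Arrays of swapped dyes correlated positively for all 15 pairs (r from 0.256 to 0.71), so the arrays within a pair run the same way. This does not compare mice, and MyD88-/- LPS mouse 4 has no pair. Across mice, Irf1 lay between 3.07 and 5.52 in every mouse and stimulus. Values at log2(0.01), 1.63% of all, were taken as missing. Both arrays of a mouse under a stimulus were combined as their mean. A limma model (version 3.58.1, R 4.3.3, lmFit then eBayes, with 1 coefficient per group) was fitted to the 16 ratios, for probes measured in 3 or more mice in each of the groups, with Benjamini-Hochberg adjustment over all 7325 probes; all p are 2-sided. Wild-type and MyD88-/- mice are taken as separate animals per the labels.

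The members and lists were chosen with earlier results of these data known. In each response the 8 members of largest rise are named, in each difference those called or, under 4 calls, the 4 of smallest p, with mouse values for the 8 of largest mean response; the other members named were added so that each gene is accounted for, some after their values were seen. For a gene on more than 1 probe, the one measured on most arrays is used. Among 13872 probes, 1 symbol was given for 11480, several for 50 and no symbol for 2342. All 35 members matched RefSeq by Entrez ID. Same-numbered mice of both stimuli had deviations correlated between -0.0568 and 0.142 over 8 pairs, across all probes tested. For 2 of the 8 LPS mice, the best match among the E. coli mice of the genotype had the same number. On these all-probe values, numbers were not taken to pair the mice beyond an alternative. Over the tested members alone the correlation was 0.159 to 0.473 in MyD88-/- and -0.0082 to 0.218 in wild-type pairs, above 0.1 in all 4 and in 2 of 4. The script was tested on simulated data. Alternatives covered floor values, centring, scaling, dye handling, the filter, the prior, a 2-fold minimum, a block and each mouse left out.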

Additional observations from a re-analysis of the deposited data

Results flagged for a closer look

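Of 108 sets of 4 mouse values of a gene in a group, 5 held a mouse far from the other 3 by Dixon's criterion. Chance flags about 5% of such sets. Adar (probe 13434) in wild-type LPS mouse 3 was -2.07, with the other mice from -0.38 to -0.06; its swapped array gave -3.92 and its unswapped array -0.22. Ifit3 (probe 7227) in wild-type LPS mouse 2 was 1.70, with the others from 0.41 to 0.62, and its arrays gave 2.34 and 1.05. Isg20 (probe 13651) in MyD88-/- E. coli mouse 2 was 2.51, with the others from 0.94 to 0.96, from its unswapped array alone. Parp14 (probe 1121) in wild-type E. coli mouse 1 was 4.17, with the others from 2.58 to 2.79, and its arrays gave 3.81 and 4.52. Trim21 (probe 5212) in wild-type LPS mouse 4 was -0.65, with the others from 1.27 to 1.63; its swapped array gave 1.06 and its unswapped array -2.36.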

How the results depend on the processing

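The count of members called higher moved by over 1.5 times under 7 alternatives in wild-type LPS, 2 in wild-type E. coli, 1 in MyD88-/- LPS and 1 in MyD88-/- E. coli. Counts that are 0 in the main analysis say nothing of stability. Responses neither called nor among the 8 largest of their group were not followed gene by gene, apart from calls of Samhd1 and Oas1g in wild-type LPS. They enter the counts. Counts called higher fell when each group was fitted alone, from 8 to 3 in wild-type LPS, 10 to 6 in MyD88-/- LPS, 16 to 10 in wild-type E. coli and 16 to 8 in MyD88-/- E. coli, a fit with fewer samples behind its spread. All probes called higher fell too, from 585 to 246, 387 to 172, 691 to 358 and 465 to 204 in the same order. With unswapped arrays alone, where 25 members and 5725 probes were tested, 5 members rose and 1 (Samhd1, -0.47) fell in wild-type LPS. Of all those probes 541 rose and 749 fell. Leaving out 1 mouse gave 3 to 8 risers and 0 to 1 fallers (Oas1g) in wild-type LPS, the lowest count without wild-type LPS mouse 1 or 2, and 8 to 11 risers in MyD88-/- LPS, 11 to 17 in wild-type E. coli and 13 to 17 in MyD88-/- E. coli. Leaving out a mouse number of 1 genotype in both stimuli was chosen after seeing the data. Without wild-type mouse 1, 2 or 3, wild-type LPS had 3, 2 and 5 risers, with 1 faller without mouse 1, where wild-type E. coli had 10. All probes called higher in wild-type LPS were then 478, 422 and 464, and 532 in wild-type E. coli without mouse 1. With a dye term and random block, 1 member was called higher in MyD88-/- cells with LPS, and 1 higher and 1 lower with E. coli. Of all probes, that fit called 9 higher and 33 lower with LPS, and 83 and 106 with E. coli. The cause was not tested. The replicate block by mouse number left the stimulus comparisons and the interaction at 0 calls (Mx2 in wild-type cells, 2.02, adjusted p = 0.0766). Identity between related proteins was planned and not run. The array number and few values per probe limit all of these.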
